A study of Homo sapiens with 18 samples.

Results

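The clustered protocadherins are the cell-surface adhesion genes PCDHA, PCDHB and PCDHG, which lie in 3 tandem arrays on the long arm of chromosome 5. All protein-coding genes whose symbol begins with PCDHA, PCDHB or PCDHG and that lie on chromosome 5 were taken from the deposited tables, which gave 53 genes of 35168 in all, namely 15 alpha, 16 beta and 22 gamma genes. The libraries came from H1, an established human embryonic stem cell line, either wild type (WT) or USB1 mut, an edited line that carries a frameshift deletion of 1 base in USB1 and is called USB1 mutant here. Cells were taken undifferentiated at day 0 (D0, labelled human embryonic stem cells), at day 16 of hematopoietic differentiation (D16, labelled hematopoietic progenitors, which the study's methods describe as CD34+/CD45+) and at day 30 (D30, labelled mature blood cells). Each genotype and day had 3 libraries of ribosomal RNA-depleted total RNA, 18 in all, and all groups share the H1 background and the differentiation protocol. The edited cells were seeded sparsely and picked as colonies, so an effect of genotype and a difference between this line and its parent cannot be told apart. The labels do not say whether libraries of a group came from separate cultures, and p-values measure only the spread between these libraries.

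Library totals ran from 4125102 to 19368903 counts, and the clustered protocadherins took 0.0111% to 0.0507% of them. The shallowest library was replicate 3 of the D30 mutant. USB1 itself was at 72.6, 79.2 and 82.1 CPM (counts relative to the scaled library total) in WT and 82.6, 83.9 and 87.3 CPM in mutant cells at D0 (log2 fold change 0.11 ± 0.091, edgeR adjusted p = 0.623), and its level was not called different on D16 or D30, so the RNA level alone does not check the genotype labels. Pluripotency markers summed to 4640 to 5546 CPM in WT and 5183 to 5453 CPM in mutant cells at D0, against 44.8 to 53.4 and 64.7 to 96.03 CPM at D16. Blood markers went the other way, with sums of 4962 to 5796 CPM in WT and 3851 to 4148 CPM in mutant cells at D16 and of 4934 to 5448 and 3072 to 4017 CPM at D30. The mutant libraries lay below the WT libraries in this blood sum on both days. In bulk libraries, fewer cells of a type and less RNA per cell cannot be told apart.

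Clustered protocadherins are transmembrane proteins of the cadherin superfamily, best known from neurons, where each cell uses its own small set of isoforms and like isoforms bind each other across membranes in self-recognition. Each alpha and gamma gene has its own variable first exon with its own promoter, which encodes the extracellular cadherin repeats, the membrane span and part of the cytoplasmic tail, and this exon is spliced to constant exons that the whole array shares. Beta genes have no constant exons. Most promoters of the arrays hold a conserved sequence element and a CTCF binding site, and CTCF with cohesin brings a promoter into contact with a distant enhancer, while DNA methylation by DNMT3B and the structural protein SMCHD1 keep other promoters silent. The C-type genes at the end of the alpha and gamma arrays (PCDHAC1, PCDHAC2, PCDHGC3, PCDHGC4 and PCDHGC5) are controlled apart from the rest, and neurons tend to express several of them together rather than by choice.

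In the GENCODE annotation of GRCh38, all 53 genes lay on the plus strand of chromosome 5. The alpha array began at 140786136 and all 15 alpha genes ended at 141012347, with 4 shared exons. The beta array ran from 141051374 to 141249365, and the gamma array from 141330514 to 141512977 with 3 shared exons. Reads within the shared exons do not by themselves tell the genes of an array apart, so the counts of single alpha and gamma genes rest on how the quantification divided those reads. The sum over an array does not rest on that division. In addition, the spans of 48 of the 53 genes, introns included, overlap an annotated gene on the opposite strand. Overlap of exons was not measured. The sources used here do not say whether strand was used in the quantification.

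The promoters are shown because each gene is read from its own promoter, and 10 genes serve as examples from the 3 arrays. PCDHA6, PCDHA11, PCDHB3, PCDHB15 and PCDHGA4 are among those called by genotype at D0, and PCDHA4, PCDHA12, PCDHGA10, PCDHGC3 and PCDHGC4 are among the most abundant in WT cells on at least 1 day. Each line gives 30 bases of RefSeq sequence (build GRCh38.p14, plus strand, 5′ to 3′) around a CGCT, in capitals. It is the first CGCT from 100 to 21 bases before the start of the RefSeq entry. For PCDHA11 the window lies downstream of the GENCODE gene start, which is at 140868183. CGCT is the 4-base core of the conserved element, but 4 letters alone do not show that a promoter holds the element.
PCDHA4: agccacatgatgtCGCTctttaccacaaaa
PCDHA6: agccgcatgatgtCGCTgtctaccatgaag
PCDHA11: aggcgcaaggtgtCGCTctttacttggtgg
PCDHA12: agtcacatgatgtCGCTctacactcagaag
PCDHB3: gaacgcatggtggCGCTgttgactaagaag
PCDHB15: caacgcatggtggCGCTgcaggctaaggct
PCDHGA4: agactctgggtgtCGCTgttcaccaatcag
PCDHGA10: ggactctgagcgcCGCTgttcacctactag
PCDHGC3: ggactctgtgtgcCGCTgtcggccaatgaa
PCDHGC4: tgagcccgggagcCGCTgtctgccaatcgg
In the order printed, the windows lie at chr5:140806982-140807011, chr5:140827900-140827929, chr5:140868886-140868915 and chr5:140875247-140875276 in the alpha array, at chr5:141100396-141100425 and chr5:141245317-141245346 in the beta array, and at chr5:141354963-141354992, chr5:141412934-141412963, chr5:141475883-141475912 and chr5:141484955-141484984 in the gamma array.

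RefSeq promoter sequences were held for 47 of the 53 genes. In the 80 bases that run from 100 to 21 bases before the start, CGCT was present on either strand in 43 of 47 promoters, against 38.2% of all 35116 promoters in the table. By array these were 12 of 13 alpha, 12 of 14 beta and 19 of 20 gamma promoters. The genes without it were PCDHA9, PCDHB5, PCDHB8 and PCDHGB2. Longer forms that contain this core were read off the sequences themselves, so their counts are descriptions. TGTCGCT was present in 10 of 13 alpha promoters (0.413% of all promoters on either strand), GGCGCTG in 10 of 14 beta promoters (3.25%) and GCCGCTGT in 11 of 20 gamma promoters (0.464%). TGTCGCT was also present in 3 of 20 gamma promoters, that of PCDHGA4 printed above among them, and in 0 of 14 beta promoters, and GGCGCTG in 1 gamma promoter. The alpha promoters without TGTCGCT were those of PCDHA9 and of the C-type genes PCDHAC1 and PCDHAC2. A match is a description of letters, not of binding.

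At the level of whole arrays, alpha and beta totals were higher in USB1 mutant than in WT cells at D0. All totals were lower at D16 than at D0. The gamma total was highest at D30, with PCDHGC3 as its largest part. At D0 the alpha genes summed to 211, 209 and 218 CPM in WT and 273, 249 and 258 CPM in mutant cells, and the beta genes to 45.03, 49.9 and 53.01 CPM and 59.6, 80.6 and 85.2 CPM. The genotypes did not overlap in either sum, and the ratios of mutant to WT means were 1.22 and 1.52. The gamma genes summed to 95.6, 98.4 and 96.9 CPM in WT and 93.8, 128 and 125 CPM in mutant cells, which overlap because mutant replicate 1 lay below all WT libraries. That library also had the lowest beta sum of the 3 mutant libraries.

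At D16 the WT sums were 76.4, 62.2 and 61.97 CPM for alpha, 16.6, 18.2 and 17.8 CPM for beta and 35.2, 41.7 and 44.1 CPM for gamma genes. The mean WT sums were 3.18-fold, 2.81-fold and 2.40-fold higher at D0 than at D16. In the mutant the D16 sums were 65.1, 75.8 and 61.3 CPM for alpha, 23.8, 31.9 and 32.4 CPM for beta and 53.2, 56.1 and 46.9 CPM for gamma genes. The genotypes overlapped in the alpha sum, while every mutant library lay above every WT library in the beta and gamma sums. At D30 the gamma sum was 201, 229 and 171 CPM in WT and 186, 193 and 137 CPM in mutant libraries, 4.97-fold the D16 mean in WT. Of the mean D30 sums of 200 CPM in WT and 172 CPM in mutant cells, PCDHGC3 alone made up 80.5 and 59.9 CPM. The gamma sum without PCDHGC3 was not taken. The alpha sum was 106, 105 and 101 CPM in WT and 124, 143 and 79.2 CPM in mutant libraries. The beta sum, at 15.8, 16.7 and 16.99 CPM in WT and 25.7, 24.4 and 14.01 CPM in mutant libraries, stood near its D16 level in WT. Genotypes overlapped in all 3 sums at D30, where mutant replicate 3, the shallowest library, had the lowest value of each array.

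**Figure D1:**
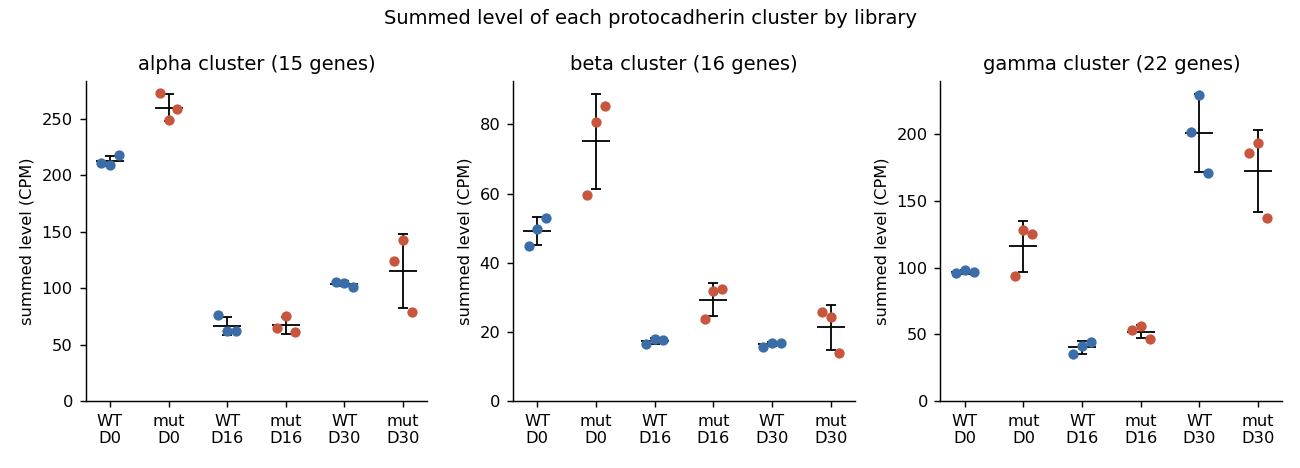
Summed CPM of the alpha, beta and gamma protocadherins in each of the 18 libraries (points) with the group mean and SD (n = 3), by day and genotype. Alpha and beta sums are highest at D0 and the gamma sum is highest at D30, where WT libraries reach 229 CPM.

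The most abundant genes differed between days. Levels of different genes are compared in TPM, an abundance that accounts for transcript length and library depth. In WT stem cells the highest was PCDHA12 at 18.3 ± 1.28 TPM (mean ± SD, n = 3 for this and the following TPM values), followed by the C-type gene PCDHAC2 at 15.7 ± 0.186 TPM, which is known for the spacing of serotonergic axons. PCDHB2 was at 13.3 ± 1.92 TPM and PCDHAC1 at 8.58 ± 1.39 TPM. The gaps between these 4 genes were larger than the SD of either neighbour, while PCDHA4, next at 7.75 ± 1.04 TPM, did not differ from PCDHAC1 beyond its spread. In WT cells at D16 PCDHA4 at 3.92 ± 1.09 TPM, PCDHB2 at 3.47 ± 0.665 TPM and PCDHGA10 at 2.61 ± 0.695 TPM led, and PCDHA4 and PCDHB2 did not differ beyond their spread. In WT cells at D30 PCDHGC3 led at 31.8 ± 14.04 TPM, followed by PCDHGA10 at 12.99 ± 0.959 TPM, PCDHA4 at 7.46 ± 0.495 TPM and PCDHGC4 at 7.15 ± 6.36 TPM, and the SD of PCDHGC4 was close to its mean. In mutant stem cells PCDHA12 at 18.3 ± 1.29 TPM, PCDHA11 at 16.6 ± 3.53 TPM, PCDHB2 at 15.6 ± 4.03 TPM and PCDHAC2 at 15.4 ± 2.84 TPM led, and neighbours in this order did not differ beyond their spread.

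Most genes were low. The mean was at least 1 CPM for 41 of 53 genes in WT cells at D0, for 26 at D16 and for 30 at D30. Of the 16 beta genes, 11, 4 and 3 reached it on these days, whereas 13, 12 and 14 of the 15 alpha genes did. PCDHB8 and PCDHGB1 had 0 counts in all 3 WT libraries at D30, which together allow a level of up to 0.0803 CPM (3 counts over the group, counting error only).

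**Figure D2:**
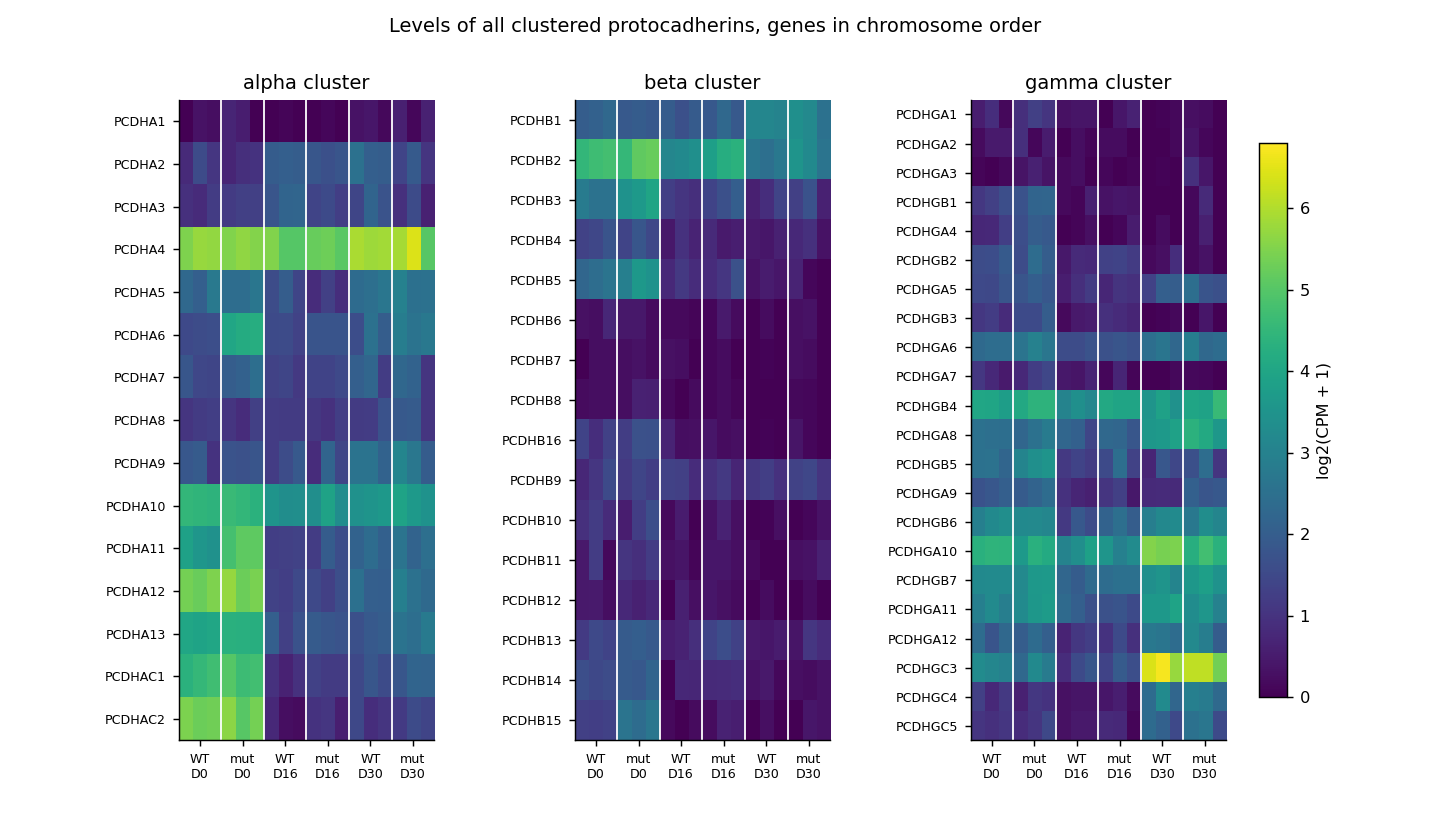
Level of every clustered protocadherin in each of the 18 libraries of the 6 groups, in log2(CPM + 1). Genes are in their order along the alpha, beta and gamma arrays. The end of the alpha array is bright at D0 and dark at D16, and PCDHGC3 is bright at D30.

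The deposited lengths show which transcript forms the quantification assigned reads to. For PCDHA4, PCDHA9, PCDHA10, PCDHGA6 and PCDHGA8 the average effective length exceeded the longest annotated form with shared exons in all 18 libraries. For PCDHA4 it ran from 9306 to 10283 nt, where the longest form with the alpha constant exons has 5374 nt and the longest form without them 10557 nt. PCDHA4 made up 23.1% of alpha counts in WT cells at D0 and 52.9% and 54.8% at D16 and D30. A long form takes more counts per transcript, and by TPM the shares were 10.7%, 30.4% and 28.8%. The method that made the lengths was the submitters' quantification, and the form in the cell was not measured apart from it.

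The comparison of genotypes at D0 asks which clustered protocadherins differ in undifferentiated cells. In the mutant, 7 genes were called higher and 0 lower among the 46 with enough counts to test (edgeR quasi-likelihood test, adjusted p below 0.1), against 2.93% of all genes called in either direction, 1.07% called higher and 1.87% called lower. They were PCDHA6 and PCDHA11 of the alpha array, PCDHB3, PCDHB5 and PCDHB15 of the beta array, and PCDHGA4 and PCDHGB5 of the gamma array. The 5 C-type genes were not among them, but with 15.2% of the 46 tested genes called, 0 of 5 does not set the C-type genes apart. DESeq2 and limma-voom also called 7 higher and 0 lower each, and at an unadjusted p below 0.05 edgeR called 0 lower. The count of 7 went to 4 without WT replicate 2, mutant replicate 2 or mutant replicate 3, and to 2 in a fit over all 18 libraries. The 7 untested genes were PCDHA1, PCDHB6, PCDHB7, PCDHB8, PCDHB12, PCDHGA2 and PCDHGA3.

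PCDHA6 had the largest fold change of the 46. It was at 1.82, 1.98 and 2.09 CPM in WT and 15.3, 17.3 and 17.9 CPM in mutant cells, from 24, 30 and 21 counts in WT and 169, 194 and 249 counts in mutant libraries. Every mutant library lay far above every WT library, an 8.58-fold ratio of means (log2 fold change 3.10 ± 0.16, edgeR adjusted p = 7.83e-05), and the gene went from 0.922% to 6.50% of alpha counts. PCDHA11, 5 genes further along, was at 13.7, 10.8 and 9.95 CPM in WT and 26.6, 33.6 and 33.6 CPM in mutant cells, again without overlap (log2 fold change 1.44 ± 0.15, edgeR adjusted p = 0.00327). Both calls held under every alternative tried. The alpha genes between them, PCDHA7 to PCDHA10, were not called, and neither was the abundant PCDHA12, at 40.5, 36.7 and 43.6 CPM in WT and 51.4, 38.00 and 41.8 CPM in mutant cells. Without PCDHA6 and PCDHA11 the alpha sum was 199 ± 5.77 CPM in WT and 212 ± 17.01 CPM in mutant cells (mean ± SD, n = 3).

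The 3 beta genes have no constant exons, so their counts do not rest on the division of reads within such exons. Any reads that match several beta genes alike would still be divided by the quantification. By gene span, PCDHB3 and PCDHB5 also overlap an annotated gene on the opposite strand. PCDHB15 was at 1.44, 1.38 and 1.49 CPM in WT and 5.16, 4.28 and 5.40 CPM in mutant cells (log2 fold change 1.77 ± 0.23, edgeR adjusted p = 0.00717), and PCDHB3 at 6.08, 4.94 and 4.87 CPM in WT and 10.04, 11.8 and 14.6 CPM in mutant cells (log2 fold change 1.19 ± 0.18, edgeR adjusted p = 0.0147). The genotypes did not overlap for either gene. Both were called in every alternative but the fit over all 18 libraries, where edgeR adjusted p was 0.15 and 0.152. PCDHB5 was at 3.72, 4.41 and 5.17 CPM in WT and 6.60, 11.2 and 10.01 CPM in mutant cells (log2 fold change 1.07 ± 0.24, edgeR adjusted p = 0.0676). The call was lost without WT replicate 1, WT replicate 2, mutant replicate 2 or mutant replicate 3 (adjusted p = 0.133 to 0.279), with transcript lengths as offsets (adjusted p = 0.173) and in the fit over all 18 libraries (adjusted p = 0.368). PCDHB2, the most abundant beta gene, was at 21.6, 24.9 and 26.1 CPM in WT and 22.2, 34.3 and 36.02 CPM in mutant cells and was not called at D0.

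Of the gamma genes, PCDHGB5 was at 4.78, 4.94 and 3.68 CPM in WT and 7.42, 9.46 and 10.4 CPM in mutant cells (log2 fold change 1.01 ± 0.19, edgeR adjusted p = 0.0359). PCDHGA4 was at 0.683, 0.725 and 1.39 CPM in WT and 2.08, 3.03 and 2.74 CPM in mutant cells (log2 fold change 1.52 ± 0.35, edgeR adjusted p = 0.0807). These calls were less firm. That of PCDHGB5 was lost without WT replicate 2, mutant replicate 2 or mutant replicate 3 (adjusted p = 0.107 to 0.200), with transcript lengths as offsets (adjusted p = 0.111) and in the fit over all 18 libraries (adjusted p = 0.512). That of PCDHGA4 was lost without WT replicate 1, WT replicate 2, mutant replicate 1, mutant replicate 2 or mutant replicate 3 (adjusted p = 0.102 to 0.336) and in the fit over all 18 libraries (adjusted p = 0.512). With the replicate number as a block, PCDHGA11 (log2 fold change 0.54, edgeR adjusted p = 0.0788) and PCDHGB1 (log2 fold change 1.02, edgeR adjusted p = 0.0725) were called higher as well.

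Over the 46 genes tested at D0, 37 had a positive and 9 a negative log2 fold change, with medians of 0.13 for alpha, 0.59 for beta and 0.42 for gamma genes, beside a median of 0.00 over all genes tested. Genotypes did not overlap for 18 of the 46, 17 of them higher in the mutant, against 20.6% of all genes. Along the gamma array, the log2 fold change was larger at the start than at the end (Spearman's rho -0.78 over 20 genes, a description, since these genes share libraries and constant exons). Along the alpha and beta arrays rho was 0.11 over 14 and 0.51 over 12 genes. The count filter admits a gene that reaches the needed counts in a single genotype. Low genes such as PCDHGA1 and PCDHGA4 can thus enter because the mutant is higher. These medians, signs and rho values depend in part on that filter.

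**Figure D3:**
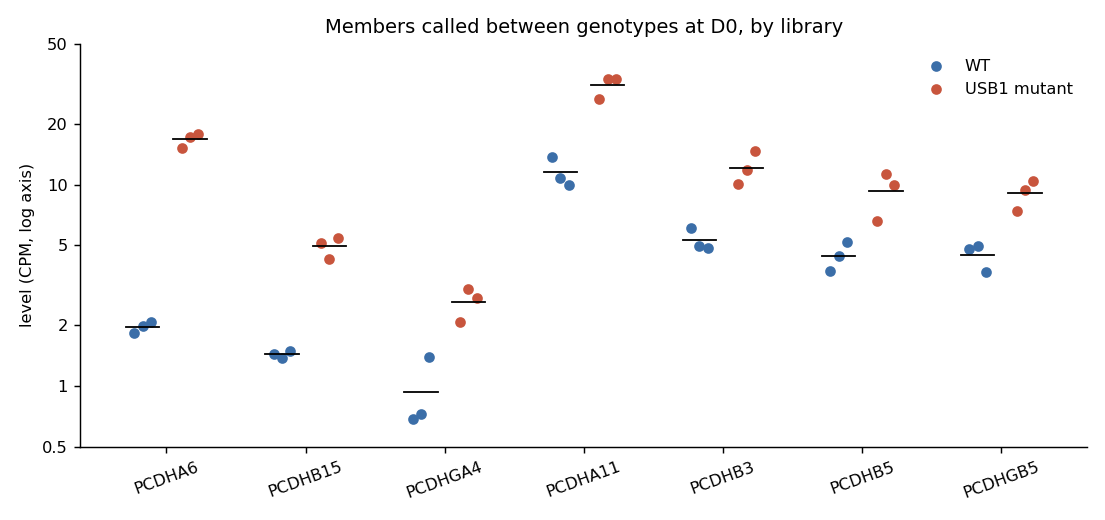
CPM on a log axis in each of the 6 D0 libraries (points) for the 7 genes called higher in the USB1 mutant. Lines mark the group means (n = 3). The WT values of PCDHA6 lie near 2 CPM and its mutant values between 15.3 and 17.9 CPM.

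The deposited effective length of PCDHA6 was compared as well at D0. It was 2966, 2957 and 2988 nt in WT and 4062, 3378 and 4307 nt in mutant cells, where the longest form with the constant exons has 5395 nt and the longest form without them 3267 nt. An effective length can lie below the annotated one. PCDHB10, with 1 annotated form of 3295 nt, had effective lengths of 2985 to 3061 nt over all libraries. All 3 WT values of PCDHA6 thus lay where the form without constant exons would place them. All 3 mutant values lay above the annotated length of that form. The difference was not called across all genes (limma on log2 length). In the same test 0 of the clustered protocadherins were called on any of the 3 days, among the 46, 32 and 32 tested, beside 0.00679%, 0.0206% and 0% of all genes. At an unadjusted p below 0.05 the counts were 3, 0 and 1, beside 5.74%, 6.68% and 8.34% of all genes.

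From D0 to D16, as stem cells became hematopoietic progenitors, most clustered protocadherins fell. In WT cells 36 of the 46 tested were called lower and 2 higher, against 76.3% of all genes called in either direction, 39.3% lower and 37% higher. In mutant cells 38 were lower and 1 higher, against 72.9%, 36% and 36.9%. The same 34 genes were called lower in both genotypes. By array, 8 of 14 alpha, 10 of 12 beta and 18 of 20 gamma genes fell in WT cells, with median log2 fold changes of -0.72, -1.78 and -1.65 beside -0.04 over all genes. The mutant medians were -1.69, -1.96 and -1.54 beside 0.01.

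In the alpha array the falls were largest at the far end. The C-type gene PCDHAC2 was at 42.98, 37.5 and 38.8 CPM in WT cells at D0 and 0.707, 0.189 and 0.147 CPM at D16 (log2 fold change -7.05 ± 0.38, edgeR adjusted p = 9.34e-12). PCDHA12 was at 1.53, 1.38 and 1.84 CPM at D16 (log2 fold change -4.69 ± 0.23, edgeR adjusted p = 3.6e-12), and PCDHAC1 went from 19.4, 22.01 and 25.1 to 0.943, 0.566 and 0.958 CPM (log2 fold change -4.80 ± 0.25, edgeR adjusted p = 6.1e-12). None of these 3 genes overlapped between the days. PCDHA11 (-2.98 ± 0.26), PCDHA13 (-2.77 ± 0.24) and PCDHA10 (-1.15 ± 0.18) fell by less. PCDHA4 was at 44.05, 52.8 and 50.6 CPM at D0 and 44.7, 31.3 and 30.9 CPM at D16 (log2 fold change -0.49 ± 0.23, edgeR adjusted p = 0.0631), and this call was lost without replicate 2 or 3 of every group (adjusted p = 0.154 to 0.260). PCDHA2 and PCDHA3 at the near end rose (1.23 ± 0.36 and 1.70 ± 0.38), PCDHA2 from 0.759, 1.91 and 1.09 to 2.95, 3.14 and 3.02 CPM.

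Over the 14 alpha genes tested, Spearman's rho between the position in the array and the log2 fold change from D0 to D16 was -0.84 in WT and -0.81 in mutant cells. It was -0.31 and -0.34 over 12 beta genes, and -0.10 and 0.31 over 20 gamma genes. These values describe the arrays, since their genes share libraries, and in alpha and gamma constant exons. Position in the alpha array also went with the starting level. WT means at D0 were 0.998 to 4.29 CPM for PCDHA2, PCDHA3 and PCDHA5 to PCDHA9, and 11.5 to 40.2 CPM for PCDHA10 to PCDHAC2. PCDHA4, at 49.1 CPM, was the exception. Position and starting level were not separated.

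In mutant cells PCDHAC2 (-5.58 ± 0.32), PCDHA12 (-4.64 ± 0.23), PCDHAC1 (-4.36 ± 0.23) and PCDHA11 (-3.93 ± 0.26) fell as well. PCDHA6 fell only in the mutant by the test, from 15.3, 17.3 and 17.9 to 2.39, 2.39 and 2.39 CPM (log2 fold change -2.86 ± 0.25, edgeR adjusted p = 1.21e-08), while its WT libraries were at 1.82, 1.98 and 2.09 CPM at D0 and 1.89, 1.95 and 1.55 CPM at D16 (log2 fold change -0.15 ± 0.28, edgeR adjusted p = 0.631). This difference between the genotypes was itself called (interaction -2.70 ± 0.37, edgeR adjusted p = 0.000937), against 7.61% of all genes. At D16 the genotypes lay close, with mutant PCDHA6 values just above the WT values and no call (log2 fold change 0.35 ± 0.31).

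**Figure D4:**
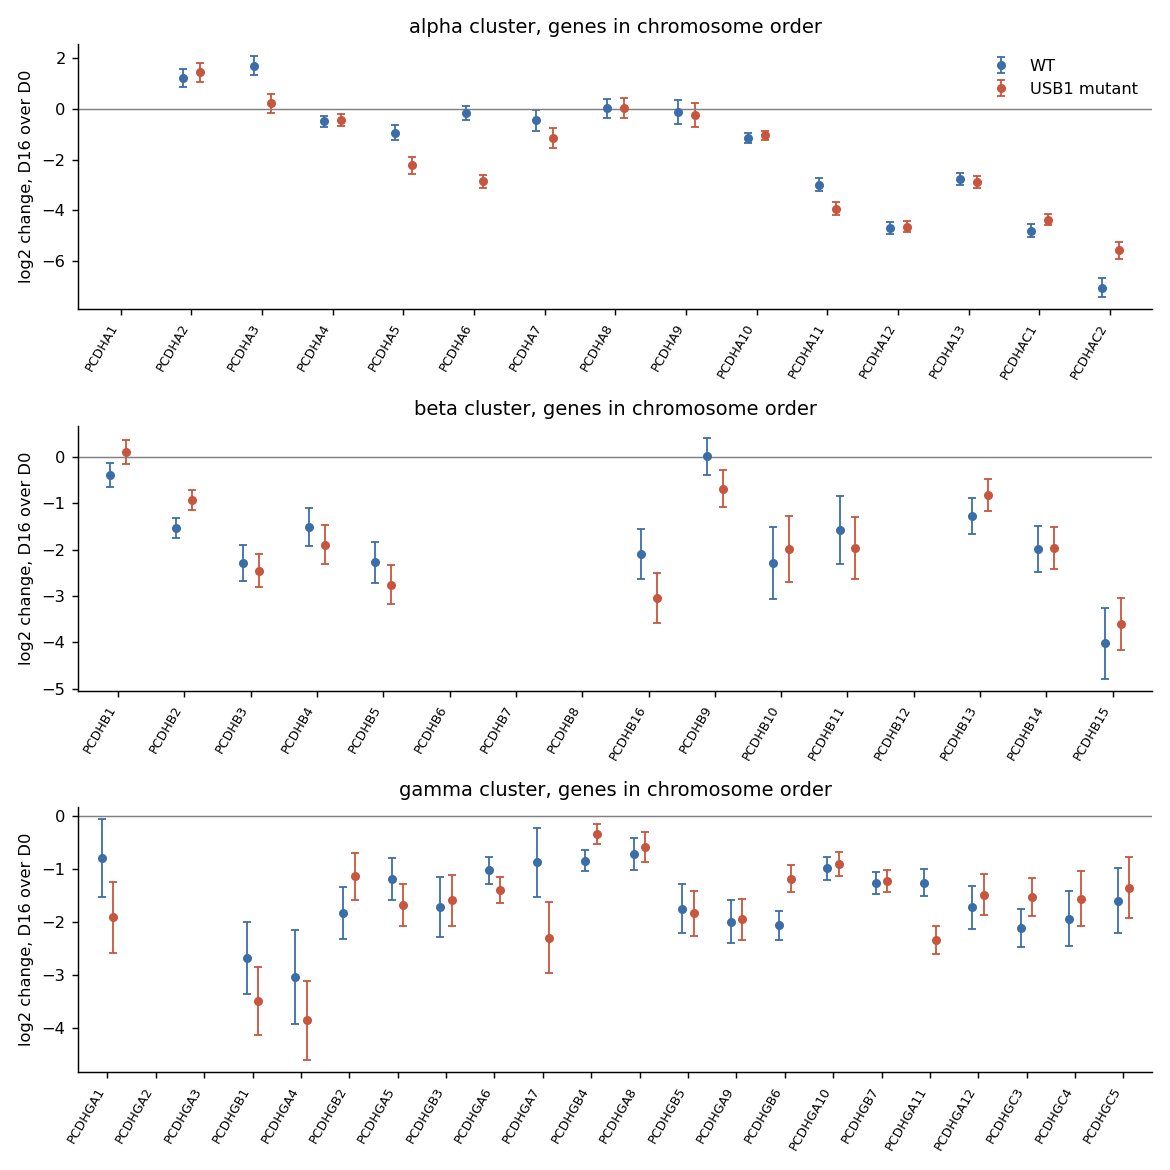
Log2 fold change from D0 to D16 with its standard error for each tested gene, in array order, for WT and USB1 mutant cells. Values of the alpha array run from above 0 at its start to -7.05 in WT cells at PCDHAC2.

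Beta and gamma genes fell across their arrays. In WT cells PCDHB15 fell by 4.02 on the log2 scale, PCDHB3 by 2.28 and PCDHB2 by 1.53. PCDHB2, the leading beta gene, was at 21.6, 24.9 and 26.1 CPM at D0 and 7.66, 8.36 and 9.43 CPM at D16. PCDHB1, which stands alone at the start of the beta array, was at 3.04, 3.29 and 3.88 CPM at D0 and 2.95, 2.14 and 2.87 CPM at D16 and was not called. Of the gamma genes, PCDHGB6 (-2.06 ± 0.27) and PCDHGC3 (-2.11 ± 0.36) fell, while PCDHGA10 (-0.99 ± 0.22) and PCDHGB4 (-0.84 ± 0.19) fell by less and were the leading gamma genes of D16 in TPM.

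From D16 to D30 more alpha and gamma genes rose than fell, and the C-type gamma genes had the largest rises. In WT cells 22 of 46 were called higher and 8 lower, against 66.7% of all genes in either direction, 31.6% higher and 35.1% lower. In mutant cells 24 were higher and 6 lower, against 69.8%, 34.7% and 35.1%. Of these 21 rose and 3 fell in both genotypes. The alpha array had 9 of 14 called higher in WT and 11 in mutant cells, with 0 lower, and the gamma array 12 and 12 of 20 higher with 4 and 2 lower. The median log2 fold changes over all 46 were 0.33 and 0.79, beside -0.02 and 0.00 over all genes.

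PCDHGC3, whose cytoplasmic part binds the Wnt pathway protein Axin1, was at 0.825, 1.89 and 2.51 CPM in WT cells at D16 and 84.9, 103 and 53.3 CPM at D30. The days did not overlap, with WT replicate 3 the lowest at D30, and the means differed 46.3-fold (log2 fold change 5.42 ± 0.36, edgeR adjusted p = 9.23e-10). In mutant cells it went from 1.57, 2.86 and 2.10 to 69.4, 70.3 and 40.2 CPM, 27.5-fold (log2 fold change 4.79 ± 0.35, edgeR adjusted p = 2.66e-09). PCDHGC4, known for neuronal survival, was at 0.236, 0.314 and 0.295 CPM in WT cells at D16 and 4.20, 8.47 and 3.76 CPM at D30 (log2 fold change 4.19 ± 0.48, edgeR adjusted p = 6.61e-07). PCDHGC5, known to bind GABA-A receptors, was at 0.236, 0.377 and 0.368 CPM in WT cells at D16 and 4.20, 3.36 and 1.83 CPM at D30 (log2 fold change 3.13 ± 0.57, edgeR adjusted p = 0.000138). All 3 also rose in mutant cells, the latter genes by 4.16 ± 0.47 and 3.05 ± 0.54 on the log2 scale, and their D30 levels overlapped between the genotypes.

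**Figure D5:**
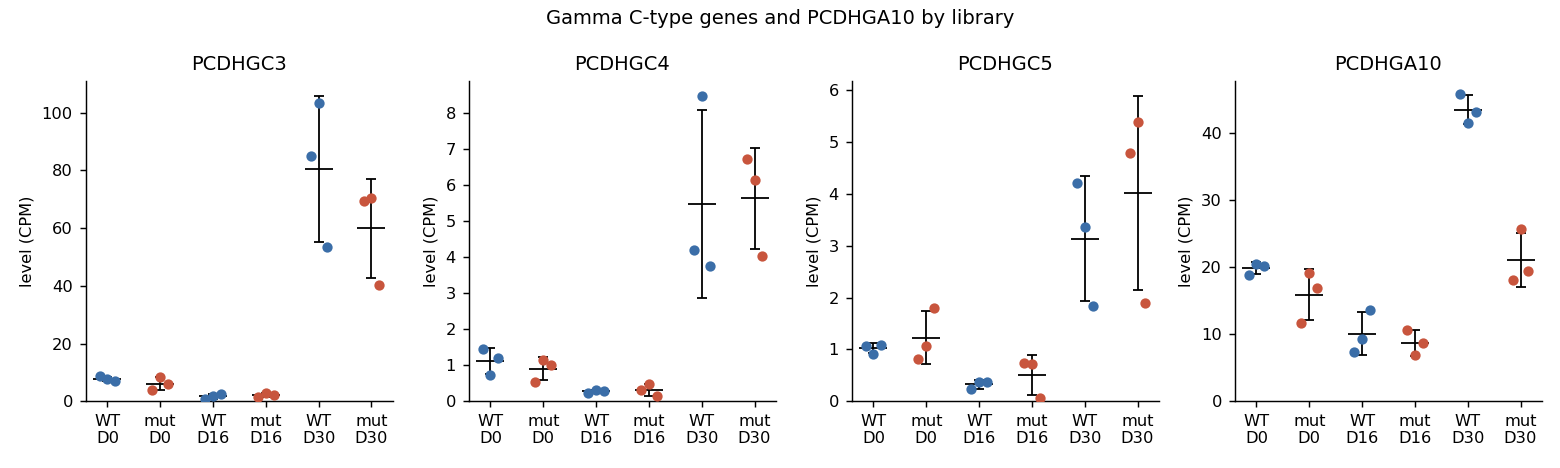
CPM of PCDHGC3, PCDHGC4, PCDHGC5 and PCDHGA10 in each of the 18 libraries, by day and genotype, with group means and SD (n = 3). For the 3 C-type genes every D30 library lies above every D16 library of its genotype.

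The average effective length of PCDHGC4 was 2539, 779 and 934 nt in WT and 1582, 969 and 4389 nt in mutant cells at D30, and 2733, 2888 and 2514 nt in WT cells at D0. Its D30 libraries thus differed in the transcript forms assigned to it. PCDHAC2 was at 1.78, 0.853 and 1.08 CPM in WT cells at D30, with an effective length of 531, 305 and 630 nt, where the longest form with the constant exons has 5725 nt. At D0 its WT lengths were 4009, 3636 and 3932 nt, so the small rise of PCDHAC2 from D16 to D30 in WT cells (log2 fold change 1.89 ± 0.50, edgeR adjusted p = 0.00317) came with reads assigned to short forms.

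Among the other genes that rose from D16 to D30, PCDHGA10 was at 7.31, 9.30 and 13.6 CPM in WT cells at D16 and 45.7, 41.4 and 43.1 CPM at D30 (log2 fold change 2.06 ± 0.22, edgeR adjusted p = 3.43e-07). PCDHGA11 (1.95 ± 0.25), PCDHGA8 (2.05 ± 0.29), PCDHGB6 (1.92 ± 0.28) and PCDHGA12 (2.19 ± 0.39) rose too. PCDHAC1, PCDHA11 and PCDHA12, which had fallen at D16, rose by 1.37 ± 0.27, 1.29 ± 0.28 and 1.14 ± 0.25 and stayed under their D0 levels, with PCDHA12 at 4.71, 3.14 and 3.12 CPM. The beta array had 1 of 12 higher and 4 lower in WT, and 1 higher and 4 lower in mutant cells. The beta gene that rose was PCDHB1 in both (1.47 ± 0.26 and 1.31 ± 0.26), at 7.51, 7.78 and 7.20 CPM in WT cells at D30. PCDHB2 fell in both (-0.78 ± 0.24 and -1.01 ± 0.23), and its call in WT cells was lost without replicate 2 of every group (adjusted p = 0.148).

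The genotypes were also compared at D16 and D30. At D16, 4 of 32 tested genes were higher and 2 lower in the mutant, against 28.5% of all genes called in either direction, 13.1% higher and 15.3% lower. Genotypes did not overlap for 12 of the 32, against 39% of all genes. PCDHB2 was at 7.66, 8.36 and 9.43 CPM in WT and 13.2, 17.7 and 19.4 CPM in mutant cells (log2 fold change 0.92 ± 0.19, edgeR adjusted p = 0.00831), and PCDHGB4 at 7.31, 9.36 and 7.74 CPM in WT and 16.3, 14.6 and 14.6 CPM in mutant cells (log2 fold change 0.83 ± 0.18, edgeR adjusted p = 0.00882). Every mutant library lay above every WT library for both genes, and both calls held under every alternative tried. PCDHB13 and PCDHGB2 were called higher and PCDHA3 and PCDHA5 lower, less firmly. The count of 6 went to 3 without WT replicate 2 or mutant replicate 3 and with DESeq2, and to 10 in the fit over all 18 libraries.

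PCDHB13 was at 0.471, 0.566 and 0.884 CPM in WT and 1.57, 2.07 and 1.47 CPM in mutant cells at D16 (log2 fold change 1.31 ± 0.40, edgeR adjusted p = 0.0403), and the call was lost without WT replicate 1, WT replicate 2 or mutant replicate 2 (adjusted p = 0.131 to 0.162) and with DESeq2 (adjusted p = 0.12). PCDHGB2 was at 0.354, 0.754 and 0.737 CPM in WT and 1.49, 1.59 and 1.26 CPM in mutant cells (log2 fold change 1.10 ± 0.40, edgeR adjusted p = 0.0792), lost without WT replicate 1, WT replicate 2, mutant replicate 1, mutant replicate 2 or mutant replicate 3 (adjusted p = 0.136 to 0.235), with no count filter (adjusted p = 0.135), with DESeq2 (adjusted p = 0.23), with transcript lengths as offsets (adjusted p = 0.136) and in the fit over all 18 libraries (adjusted p = 0.12). All 4 of these genes lay below 5 CPM in all 6 libraries. PCDHA3 was at 2.47, 3.58 and 3.68 CPM in WT and 1.65, 1.91 and 1.40 CPM in mutant cells (log2 fold change -1.05 ± 0.31, edgeR adjusted p = 0.0372), lost without WT replicate 2, mutant replicate 1 or mutant replicate 3 (adjusted p = 0.105 to 0.137) and with transcript lengths as offsets (adjusted p = 0.106). PCDHA5 was at 2.00, 3.02 and 1.69 CPM in WT and 0.825, 1.43 and 0.842 CPM in mutant cells (log2 fold change -1.19 ± 0.39, edgeR adjusted p = 0.0555), lost without WT replicate 1, WT replicate 2, mutant replicate 1 or mutant replicate 3 (adjusted p = 0.110 to 0.253) and with DESeq2 (adjusted p = 0.109). With the replicate number as a block, PCDHB3 (log2 fold change 0.96, edgeR adjusted p = 0.0900) and PCDHGB6 (log2 fold change 0.88, edgeR adjusted p = 0.0484) were called higher in addition.

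At D30, 2 of 32 tested genes were higher and 1 lower, against 20.6% of all genes in either direction, 10.8% higher and 9.75% lower. Genotypes did not overlap for 7 of them, against 35.7%. PCDHGA10 was at 45.7, 41.4 and 43.1 CPM in WT and 18.1, 25.7 and 19.4 CPM in mutant cells (log2 fold change -1.03 ± 0.17, edgeR adjusted p = 0.00850), and all mutant libraries lay below all WT libraries. PCDHGA9 was at 0.764, 0.799 and 0.753 CPM in WT and 3.26, 2.47 and 2.70 CPM in mutant cells (log2 fold change 1.86 ± 0.38, edgeR adjusted p = 0.0170). Both calls held under every alternative. PCDHA13 was at 2.16, 2.72 and 3.01 CPM in WT and 4.98, 4.52 and 5.93 CPM in mutant cells (log2 fold change 0.95 ± 0.30, edgeR adjusted p = 0.0738), and its call was lost without WT replicate 1, WT replicate 2, WT replicate 3, mutant replicate 1 or mutant replicate 3 (adjusted p = 0.125 to 0.204) and with no count filter (adjusted p = 0.125). In the fit over all 18 libraries the count of 3 went to 10. The C-type gamma genes were not called, with PCDHGC3 at a log2 fold change of -0.40 ± 0.27.

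The median log2 fold change over the 32 tested genes was 0.17 at D16 and 0.28 at D30, beside 0.01 and -0.01 over all genes. These medians carry the limit of the count filter given for D0. PCDHA6, which differed most at D0, was at 2.04, 4.80 and 3.01 CPM in WT and 6.41, 5.03 and 5.66 CPM in mutant cells at D30, without overlap and without a call (log2 fold change 0.77 ± 0.36). PCDHA11 was at 3.44, 4.32 and 3.23 CPM in WT and 5.19, 3.50 and 4.58 CPM in mutant cells.

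Whether a change between days differed between the genotypes was tested as an interaction over the 46 genes. It was called for 2 genes from D0 to D16, for 2 from D16 to D30, against 20.5% of all genes, and for 3 from D0 to D30, against 10.9%. PCDHA6 was called in both comparisons with D0, which share the D0 libraries, and PCDHA11 (-1.18 ± 0.34, edgeR adjusted p = 0.0440) from D0 to D30, so at D0 both stood further above WT than at D30. The call of PCDHA11 was lost without replicate 2 or 3 of every group (adjusted p = 0.278 to 0.430).

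Genes known to control the arrays were compared between the genotypes. Of 27 architecture and silencing factors tested at D0, 0 were called by edgeR at an adjusted p below 0.1, 6 at an unadjusted p below 0.05, and 1 each, lower, by DESeq2 and limma-voom. At D16 3 of 26 were higher and 3 lower in the mutant, against 28.5% of all genes in either direction. Among them were the DNA methyltransferase gene DNMT3B (1.00 ± 0.25), the corepressor gene TRIM28 (0.72 ± 0.15) and the histone methyltransferase gene SETDB1 (-0.71 ± 0.11). At D30 1 was higher and 3 lower of 26, against 20.6% of all genes, with SMCHD1 at -0.49 ± 0.16. CTCF, which anchors the promoter loops, was not called by genotype on any day.

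Between days these factors moved in both directions, 13 higher and 9 lower of 27 from D0 to D16 in WT cells, against 37% and 39.3% of all genes. DNMT3B was at 1330 ± 104 CPM at D0, 60.6 ± 26.8 CPM at D16 and 2.00 ± 0.404 CPM at D30 in WT cells (mean ± SD, n = 3), with log2 fold changes of -4.48 ± 0.33 and -4.97 ± 0.39. SMCHD1 rose from D0 to D16 (0.94 ± 0.15) and fell from D16 to D30 (-1.18 ± 0.15). CTCF fell a little from D0 to D16 (-0.45 ± 0.12) and was not called from D16 to D30, while the cohesin gene RAD21 rose (0.59 ± 0.12) and then fell (-0.77 ± 0.12). Whether these changes bear on the arrays was not tested. Over all the gene lists given here and below, 6 genes were called by genotype at D0, and with the replicate number as a block 25. How these 25 divide among the lists is not given here. The D0 counts of each list, those of 0 among them, thus hold only for fits without the block.

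Of the intracellular partners of clustered protocadherins, 1 of 16 was lower at D0, the protein kinase C substrate MARCKS, which binds actin (-0.40 ± 0.089), and 4 were higher and 2 lower of 15 at D16, against 1.87% of all genes lower at D0 and 28.5% called in either direction at D16. The largest of the D16 differences in this list were those of CYFIP2 (-1.33 ± 0.15), NCKAP1 (1.26 ± 0.16) and CYFIP1 (1.15 ± 0.27), subunits of the WAVE complex that drives actin branching and that protocadherin tails can bind. At D30 2 were higher and 2 lower of 16, against 20.6% of all genes, with NCKAP1 at 1.19 ± 0.20.

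Genes that flank the arrays on chromosome 5 were measured to see whether the region moved as a whole. At D0, 0 of 19 neighbours were called by genotype by edgeR, with 3 at an unadjusted p below 0.05, 1 by DESeq2 and 0 by limma-voom, and a median log2 fold change of 0.09. At D16 3 of 20 and at D30 1 of 21 were lower, against 15.3% and 9.75% of all genes, ARAP3 on both days (-1.21 ± 0.18 and -0.48 ± 0.15). From D0 to D16 in WT cells 10 neighbours rose and 7 fell of 22, against 37% and 39.3% of all genes, with TAF7, which lies between the beta and gamma arrays, at 0.92 ± 0.14. The pseudogenes of the arrays had 0 calls by genotype on any day by edgeR, DESeq2 or limma-voom and 0 at an unadjusted p below 0.05, with at most 3 of 6 testable. PCDHGB8P of the gamma array fell from D0 to D16 (-1.01 ± 0.32) and rose from D16 to D30 (1.61 ± 0.32) in WT cells.

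Other cadherins were compared between D0 and D16, where 39.3% of all genes fell and 37% rose in WT and 36% and 36.9% in mutant cells. Of 12 non-clustered protocadherins 8 fell and 2 rose in WT cells, with the same counts in mutant cells, and PCDH1 was among those that fell (-8.42 ± 0.37). Of 8 classical cadherins 7 fell and 1 rose in either genotype, among them CDH1, the epithelial cadherin of stem cell colonies (-10.02 ± 0.66 in WT). At D0 1 of 9 non-clustered protocadherins was lower in the mutant, PCDH7 (-1.35 ± 0.22), and 1 of 7 classical cadherins, CDH11 (-0.73 ± 0.15), against 1.87% of all genes. At D16 1 of 6 non-clustered protocadherins was lower, and 2 of 3 classical cadherins were higher, CDH1 (2.84 ± 0.65) and CDH5 (1.18 ± 0.25), against 15.3% of all genes lower and 13.1% higher. At D30 1 of 6 non-clustered protocadherins was higher, against 10.8% of all genes, and 0 of 3 classical cadherins were called by edgeR, DESeq2 or limma-voom, with 0 at an unadjusted p below 0.05.

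Markers of other cell types were measured beside these results. For the counts that follow, 1.07% of all genes were called higher and 1.87% lower by genotype at D0. At D16 these shares were 13.1% and 15.3%. At D0 the 13 neural markers summed to 456 to 584 CPM in WT and 545 to 628 CPM in mutant cells, with NEUROD1 at 0 in all 6 libraries, SOX1 at 0 in the 3 mutant libraries, and 1 of 7 called by genotype, NCAM1, which was lower (-1.25 ± 0.22). The neural sum was 8.01 to 12.9 CPM in WT and 11.6 to 14.2 CPM in mutant cells at D16, and SOX1 and NEUROD1 were at 0 in all 6 libraries. Blood markers summed to 41.01 to 44.01 CPM in WT and 58.9 to 65.3 CPM in mutant cells at D0, with 2 of 5 called higher, CORO1A (0.91 ± 0.16) and LCP1 (0.72 ± 0.11). Of the 8 pluripotency markers, 0 were called at D0 by edgeR, with 1 at an unadjusted p below 0.05 and 1 each, higher, by DESeq2 and limma-voom. Stroma markers summed to 201 to 423 and 229 to 299 CPM and endothelial markers to 128 to 212 and 119.9 to 148 CPM at D0. By edgeR 0 of either list were called, with 2 stroma and 1 endothelial marker at an unadjusted p below 0.05, and DESeq2 and limma-voom called 1 stroma marker lower each. At D16 endothelial markers summed to 323 to 406 CPM in WT and 392 to 435 CPM in mutant libraries, and 3 of 5 were called higher in the mutant by edgeR, DESeq2 and limma-voom each and 0 lower, namely TEK (1.49 ± 0.29), ESAM (1.14 ± 0.22) and CDH5 (1.18 ± 0.25), with a median of 1.14 over the list. The endothelial sums overlapped between the genotypes. Of 6 pluripotency markers tested at D16, 1 was called higher in the mutant and 0 lower. Their sums did not overlap, at 44.8 to 53.4 CPM in WT and 64.7 to 96.03 CPM in mutant libraries. Stroma markers summed to 52.2 to 76.2 and 36.5 to 49.6 CPM at D16, with 1 higher and 1 lower of 6, and of the blood markers 1 was higher and 6 lower of 9. At D30 stroma markers ran to 11.5 to 27.9 CPM in WT and 15.5 to 118 CPM in mutant libraries, and endothelial markers to 283 to 344 and 143 to 231 CPM. Their part in the protocadherin differences was not tested.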

How the data were processed

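Total RNA of 18 H1 libraries (3 per genotype and day) was depleted of ribosomal RNA and made into directional libraries by the authors. Per the submitters' processing notes, reads were handled with Trimmomatic 0.36, Salmon 0.13.1 and DESeq2, for which no version is given, against GRCh38. The authors deposited, for each gene, expected counts (Salmon's estimated counts summed over transcripts), abundances (TPM, scaled for length and depth), and average effective transcript lengths. Whether strand was used is not given in the sources used here. Gene symbols and positions came from GENCODE version 44, which matched 35051 of 35168 identifiers, and the 117 others held 0.238% of counts.

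Expected counts were rounded and scaled by TMM, and levels are in CPM of the scaled total. Genes were filtered by filterByExpr and tested with edgeR 4.0.16 (quasi-likelihood test, R 4.3.3), within a day for genotype and over all 18 libraries for days and interactions, with Benjamini-Hochberg adjustment over all genes tested and a threshold of 0.1. Common biological coefficients of variation were 0.130, 0.170 and 0.223 at D0, D16 and D30. Lengths were tested on the log2 scale with limma 3.58.1. DESeq2 1.42.0 and limma-voom, no count filter, lengths as offsets, a replicate block, a fit over all 18 libraries, a threshold of 0.05 and each library left out (between days, each replicate number) were the alternatives. The length refits and the scaling and left-out values of the array sums were added after seeing the data. The scripts were checked on simulated counts. Genes named were those called (at most 12 per array and comparison), those of at least 5 CPM in a group, PCDHA6, PCDHA11, the C-type genes, and up to 3 called genes per list and day. The 11 lists held 131 entries, 130 of them matched, and PCDH1, PCDH12 and CDH5 are in more than 1. The members and lists were chosen with earlier results of these data known. Intervals and limits at 0 cover counting error only.

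Same-numbered WT and mutant libraries deviated together at D0 (correlations of deviations 0.250, 0.145 and 0.190) and D16 (0.119, 0.200 and 0.323) and so count as pairs there, and not at D30 or across days. The tests given carry no replicate block, as planned, and the block is an alternative. Its changed calls are given for the clustered protocadherins, and for the gene lists only the number of calls is given. Promoter sequences came from RefSeq (GRCh38.p14).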

Additional observations from a re-analysis of the deposited data

Results flagged for a closer look

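Changes between days that differed between the genotypes, by the interaction test over all 18 libraries, are given here as values. In groups of 3 libraries no single library was tested for standing apart.

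For PCDHA6 the difference between the genotypes' changes was -2.70 on the log2 scale from D0 to D16 (edgeR adjusted p = 0.000937) and -2.33 from D0 to D30 (edgeR adjusted p = 0.000818), which share the D0 libraries. Both calls held in every alternative, and mutant libraries lay above WT libraries on all 3 days. PCDHA11 had -1.18 from D0 to D30 (edgeR adjusted p = 0.0440), lost without replicate 2 or 3 of every group (adjusted p = 0.278 to 0.430).

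PCDHGA11 had -1.08 from D0 to D16 (edgeR adjusted p = 0.0983) and -0.96 from D0 to D30 (edgeR adjusted p = 0.0956). Its levels were 6.61, 8.57 and 6.56 CPM in WT and 8.59, 11.2 and 12.2 CPM in mutant cells at D0 and 4.12, 3.14 and 2.14 CPM in WT and 2.23, 2.39 and 1.89 CPM in mutant cells at D16. The first call was lost without replicate 1, 2 or 3 of every group (adjusted p = 0.196 to 0.456), with no count filter (adjusted p = 0.155), with transcript lengths as offsets (adjusted p = 0.292), with the replicate block (adjusted p = 0.115) and with limma-voom (adjusted p = 0.15), and the second without replicate 1, 2 or 3 of every group (adjusted p = 0.201 to 0.540), with no count filter (adjusted p = 0.134), with transcript lengths as offsets (adjusted p = 0.201) and with the replicate block (adjusted p = 0.102).

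PCDHA5 had 1.39 from D16 to D30 (edgeR adjusted p = 0.0481), with 2.00, 3.02 and 1.69 CPM in WT and 0.825, 1.43 and 0.842 CPM in mutant cells at D16 and 4.20, 4.64 and 5.38 CPM in WT and 6.92, 4.69 and 4.85 CPM in mutant cells at D30. The call was lost without replicate 1 or 2 of every group (adjusted p = 0.168 to 0.356).

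PCDHGB1 had a fitted 4.93 from D16 to D30 (edgeR adjusted p = 0.0736). It had 0, 0 and 0 counts in the WT and 1, 9 and 0 counts in the mutant libraries at D30, so the fitted value depends on the prior count and is no bound, and mutant replicate 2 holds 9 of the 10 counts. The call was lost without replicate 1, 2 or 3 of every group (adjusted p = 0.139 to 0.464), with transcript lengths as offsets (adjusted p = 0.128) and with limma-voom (adjusted p = 0.226).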

How the results depend on the processing

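Of 4333 checks of 422 values of single genes, 4139 kept their direction and their side of the threshold, 153 lost and 39 gained a call, and 2 reversed. Both reversed values were PCDHAC2 with transcript lengths as offsets, at -2.16 by genotype at D30 (edgeR adjusted p = 0.0321) and -2.26 from D0 to D30 as an interaction (edgeR adjusted p = 0.0314), where its effective lengths ranged widely. Of 78 shares of an array, 61 moved by more than 1 SD when taken from TPM.

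Genes called by genotype numbered 7 at D0, 4 to 7 with each library left out (4 without WT replicate 2, mutant replicate 2 or mutant replicate 3) and 2 in the fit over all 18 libraries. At D16 they numbered 6, 3 with DESeq2, 3 to 7 with each library left out (3 without WT replicate 2 or mutant replicate 3) and 10 over all 18 libraries, and at D30 3 and 10 over all 18. Length calls at D30 were 0 to 1 with each library left out, the 1 without WT replicate 2. Calls of the interaction from D0 to D16 were 2, and 1 with no count filter, lengths as offsets, the replicate block, limma-voom, a threshold of 0.05 and each replicate number left out. From D16 to D30 they were 2, 5 with lengths as offsets, 1 with limma-voom and with a threshold of 0.05, and 0 to 1 with each number left out, and from D0 to D30 3, and 1 to 3, the 1 without replicate 2 or replicate 3 of every group. For the gene lists the counts were 6 at D0, against 11 with no count filter and with DESeq2, 3 with lengths as offsets and over all 18 libraries, 25 with the replicate block and 0 to 9 with each library left out (0 without mutant replicate 3, 1 without WT replicate 2). They were 30 at D16, 19 to 36 with each library left out (19 without mutant replicate 3), and 16 at D30, 7 with lengths as offsets, 40 over all 18 libraries, 5 at a threshold of 0.05 and 5 to 17 with each library left out (5 to 7 without any WT library or mutant replicate 3). With RLE in place of TMM scaling the WT sums at D0 were 223 CPM for alpha (from 213) and 101 CPM for gamma (from 97.0). The cause of these shifts was not tested.

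With the replicate block PCDHA4 was gained (D0 to D16 in the mutant, -0.44, edgeR adjusted p = 0.0896), PCDHA7 lost (D16 to D30 in the mutant, edgeR adjusted p = 0.117), PCDHGB6 gained (interaction from D16 to D30, edgeR adjusted p = 0.0747) and both interactions of PCDHGA11 lost. Beside the genes given at D0 and D16, the block changed no other call of a clustered protocadherin. Same-numbered correlations at D30 were 0.147, -0.0427 and 0.257. Counts set the precision: mutant replicate 3 at D30, with 4125102 counts, resolves 3 counts as 0.727 CPM.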
